A study of Mus musculus with 3 samples.

Results

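The genes described here encode the heat shock proteins and the DNAJ co-chaperones, the proteins that help other proteins to fold, keep them soluble and take part in their transport and breakdown. Members were chosen by gene symbol in the annotation of the array, as the symbols that begin with Hspa, Hspb, Hsp90 or with Dnaja, Dnajb or Dnajc and a number, together with Hspd1, Hspe1 and Hsph1. The rule found 68 of 19504 measured genes, each with 1 probe set. Gene expression was measured in the hippocampus of male C57BL/6J mice that were 11 weeks old, with the RNA of a group pooled and hybridized to 1 Affymetrix whole-transcript array. The non-restrained vehicle-injected group (NV, 3 mice pooled) received no restraint and no extracellular vesicles (EVs). The restraint-stressed sedentary EV-injected group (RS, 4 mice pooled) was restrained 6 h per day for 3 weeks and then received 20 μg of serum EVs from sedentary donors into the lateral ventricle. The restraint-stressed exercise EV-injected group (RE, 4 mice pooled) had the same restraint and the same amount of EVs from donors with a running wheel for 4 weeks. Tissue was taken 3 days after injection. The title of the NV pool names vesicles, while its source names PBS, and the labels give ventral hippocampus in 1 field and hippocampus in the others.

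Each group is 1 array, so differences could not be set against a spread between replicates, and no p-value is given. Values are log2 signals, so a difference of 1 is a 2-fold difference, and genes are called higher or lower at that threshold, which the study's methods name. RS differs from NV in restraint and in the injected material, and their parts cannot be told apart. Values in a row of 3 are in the order NV, RS and RE. RS enters both RS against NV and RE against RS. As background served a signal of 6.01, the 95th percentile over 1448 olfactory, vomeronasal and taste receptor genes. Of the 68 members, 54 lay above this level in at least 1 pool and 52 in all 3. All 8 pan-neuronal marker genes were above it in NV. In a bulk sample fewer cells of a type and less RNA per cell cannot be told apart.

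HSP70 proteins bind unfolded stretches of their clients in a cycle driven by ATP. DNAJ proteins bring clients to them and start ATP hydrolysis through the J domain, and HSP110 proteins release the nucleotide afterwards. HSP90 takes over clients that are nearly folded, among them kinases and steroid hormone receptors such as the glucocorticoid receptor, which mediates the response to stress hormones in the hippocampus. Small HSPs hold unfolded proteins without ATP, and the chaperonin made of Hspd1 and Hspe1 folds proteins in mitochondria. In heat or other stress that unfolds proteins, the factor Hsf1 binds heat shock elements, which are inverted repeats of GAA, and switches on a part of these genes. Unfolded proteins in the endoplasmic reticulum (ER) act on a different sequence, the ER stress response element.

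The promoter windows of RefSeq on GRCm38.p6 (250 bases before to 50 bases after each start) held both motifs among the members. The stretches that carry them in some of the members are printed here because the values below are read by these groups. A window was found for 56 of the 68 members. The heat shock element was searched as GAANNTTC or TTCNNGAA on both strands, which overlap where 3 or more units follow each other. It was found for 15 of the 56 members (26.8%) and for 17% of all genes with a window. A run of 3 such units, in which GAA, TTC and GAA (or TTC, GAA and TTC) follow each other with 2 bases between them, was found for 4 members (7.14%), Dnajb6, Hspd1, Hspe1 and Hsph1, against 0.662% of all genes. Capitals mark the matching letters of the heat shock element.
Hspa1a (chr17:34972207-34972306, minus strand): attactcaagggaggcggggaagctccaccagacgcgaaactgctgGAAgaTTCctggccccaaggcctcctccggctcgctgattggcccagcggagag
Hspa1b (chr17:34959289-34959388, minus strand): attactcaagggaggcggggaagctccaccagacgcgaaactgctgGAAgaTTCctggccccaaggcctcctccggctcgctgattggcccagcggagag
Hspe1 (chr1:55087933-55088147, plus strand): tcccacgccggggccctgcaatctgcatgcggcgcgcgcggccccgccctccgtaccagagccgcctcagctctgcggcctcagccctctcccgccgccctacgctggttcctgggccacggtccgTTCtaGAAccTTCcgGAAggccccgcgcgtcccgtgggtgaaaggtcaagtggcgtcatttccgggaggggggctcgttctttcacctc
Hspb1 (chr5:135887769-135887858, plus strand): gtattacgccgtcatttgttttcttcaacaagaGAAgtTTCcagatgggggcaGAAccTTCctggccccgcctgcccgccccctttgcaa
Dnajb6 (chr5:29735819-29735898, plus strand): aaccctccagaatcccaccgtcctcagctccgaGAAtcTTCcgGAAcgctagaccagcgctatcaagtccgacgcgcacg
Dnaja4 (chr9:54699439-54699538, plus strand): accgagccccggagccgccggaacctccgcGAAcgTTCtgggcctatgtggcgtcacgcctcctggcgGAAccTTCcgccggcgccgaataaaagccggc
The stretches of Hspa1a and Hspa1b, the inducible HSP70 genes, are the same in every base, and their windows differ at 4 of 300 bases. The stretch of Hspe1 is the whole interval between its start and that of Hspd1, which lies 216 bases away on the other strand, so both genes have the same elements between them. The ER stress response element, searched as CCAAT and CCACG with 9 bases between them on either strand, was found for 3 members (5.36%), Hspa5, Hsp90b1 and Dnajc3, against 0.137% of all genes. Capitals mark it below.
Hspa5 (chr2:34771990-34772089, plus strand): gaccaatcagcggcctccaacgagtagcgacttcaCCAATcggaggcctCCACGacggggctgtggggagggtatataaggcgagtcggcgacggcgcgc
Hsp90b1 (chr10:86705515-86705674, minus strand): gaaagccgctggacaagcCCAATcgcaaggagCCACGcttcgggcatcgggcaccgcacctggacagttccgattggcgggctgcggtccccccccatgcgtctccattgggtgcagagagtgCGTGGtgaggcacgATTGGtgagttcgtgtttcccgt
Dnajc3 (chr14:118937807-118937866, plus strand): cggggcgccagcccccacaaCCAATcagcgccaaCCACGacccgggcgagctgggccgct
A match is a description of letters and not a measured site.

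Chaperone signals were close to each other in the 3 pools. Between RS and NV, 1 of 68 members was called (1.47%), where 7.8% of all genes and 9.02% of genes above background were called. The member was Dnajb14, which was higher as were 3.52% of all genes, and 0 members were lower, against 4.29% of all genes. Between RE and RS 0 members were called in either direction, against 1.16% of all genes (0.441% higher and 0.723% lower) and 0.918% of those above background. Between RE and NV 1 member was called, Hspa12b, which was higher and lay below background in all pools, against 7.98% of all genes (2.87% higher and 5.12% lower) and 8.29% of those above background. The range of a member over the 3 pools had a median of 0.42 on the log2 scale, against 0.47 for all genes. It was below 0.5 for 46 members (67.6%) and for 53.1% of all genes. At a threshold of 1.5-fold, 7 members were called between RS and NV (10.3%, against 25.5% of all genes), 2 between RE and RS (2.94%, against 9.79%) and 8 between RE and NV (11.8%, against 26.5%). In the first pair these were Dnaja4, Dnajb12, Dnajb14, Dnajc11, Hspa12b and Hspb8, which were higher, and Hspb11, which was lower, where 12.3% of all genes were higher and 13.2% lower. Hspb3 was higher and Dnajb3 lower in RE than in RS, both below background, where 3.46% of all genes were higher and 6.33% lower. Between RE and NV, Dnaja4, Dnajb14, Dnajc16, Hspa12b and Hspb3 were higher and Dnajc25, Dnajc5b and Hspa14 lower, where 10.5% of all genes were higher and 16% lower.

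**Figure D1:**
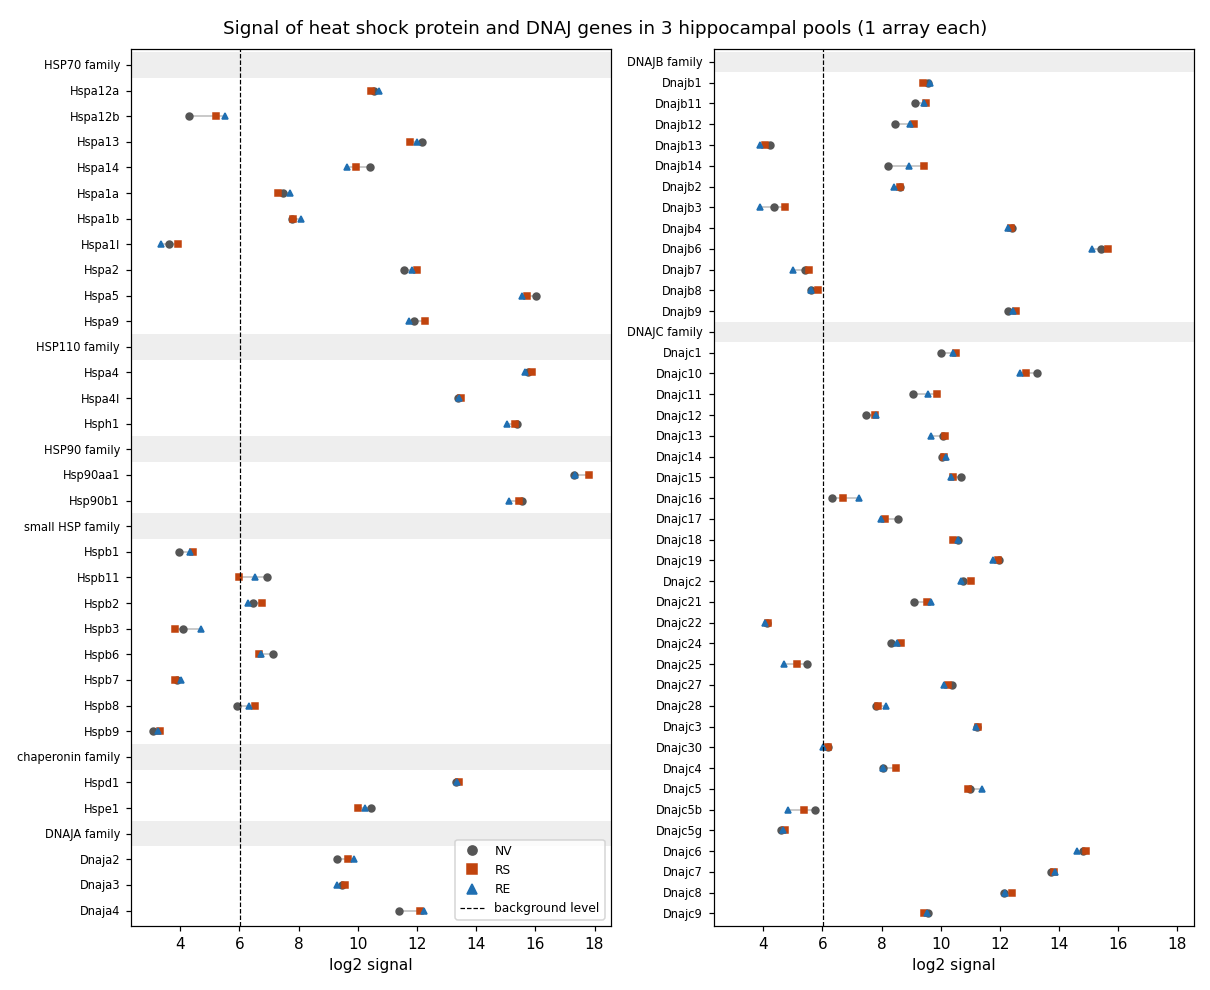
Log2 signal of the 68 members in the pools NV, RS and RE (1 array each), ordered by family, with the background level of 6.01 as a dashed line. The 3 symbols of a gene lie within 0.5 of each other for 46 members, and Dnajb14 and Hspa12b have the widest spread.

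Over the 68 members RS against NV had a median difference of 0.09, RE against RS one of -0.12 and RE against NV one of 0.01. Over all genes these medians were -0.01, -0.07 and -0.06, and over the genes above background in at least 1 pool 0.07, -0.06 and 0.01. The member median of RS against NV was 0.02 after quantile normalization and -0.0024 once a trend on signal was removed, so its sign is not settled. Members with a positive difference numbered 42 of 68 for RS against NV (61.8%, where 49.5% of all genes and 55.9% of those above background were positive). For RE against RS they numbered 22 (32.4%, against 41.5% of all genes) and for RE against NV 34 of 68 (against 44.6% of all genes). With the trend on signal removed, 34 of 68 were positive between RS and NV. By family the median of RS against NV was -0.02 for 10 HSP70 genes, 0.09 for 3 HSP110 genes, 0.20 for 2 HSP90 genes, 0.09 for 8 small HSP genes and -0.17 for the 2 chaperonin genes. Among the co-chaperones it was 0.37 for 3 DNAJA genes, 0.23 for 12 DNAJB genes and 0.07 for 28 DNAJC genes, which turned to -0.0130 after quantile normalization. For RE against RS the family medians ran from -0.40 in HSP90 to 0.15 in DNAJA. All family medians were thus well inside the 2-fold threshold, and families of 2 or 3 genes rest on few values.

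**Figure D2:**
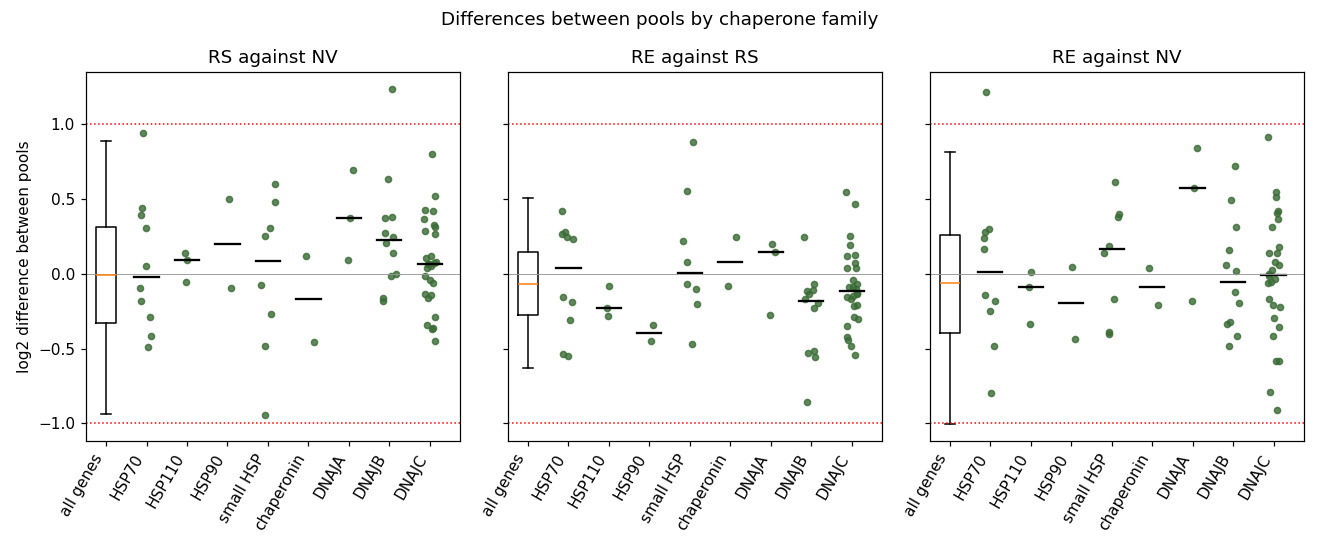
Log2 difference between 2 pools for each member (green points) by family, with the family median as a black line and a box for all genes (median, quartiles, whiskers from the 5th to the 95th percentile). Dotted lines mark 2-fold, which only Dnajb14 passed in RS against NV and only Hspa12b in RE against NV.

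Among genes known to respond to heat, 10 of 13 listed were measured and none was called in any pair of pools. Of all genes 7.8% (RS against NV), 1.16% (RE against RS) and 7.98% (RE against NV) were called. For so few genes the absence of calls is near those shares. All 10 had a range below 0.5 over the 3 pools, as did 53.1% of all genes. Hspa1a was at 7.48 (NV), 7.30 (RS) and 7.72 (RE), and its near-identical copy Hspa1b at 7.76, 7.82 and 8.06. RE was the highest pool for both, with a difference of 0.42 and 0.24 from RS, but probes of such copies can read both, so these may not be separate measurements. Dnajb1, the main DNAJ partner of cytosolic HSP70, was at 9.58 (NV), 9.40 (RS) and 9.64 (RE). Its difference of -0.18 between RS and NV was exceeded in size by 69% of all genes. Hsph1, an HSP110 protein, was at 15.38, 15.32 and 15.04. Hspa4l, of the same family, was at 13.40, 13.49 and 13.41, and the related Hspa4 at 15.74, 15.88 and 15.65. The co-chaperone Dnajb4 was at 12.41, 12.39 and 12.28. Hspb1, the classical small HSP, was below background in all pools, at 3.96, 4.44 and 4.34. The list's Hspa8, Hsp90ab1 and Dnaja1, had no probe set under their names and are not analysed here.
The chaperonin genes share 1 promoter region. Hspd1, the folding chamber, was at 13.31 (NV), 13.42 (RS) and 13.34 (RE). Hspe1, its lid, was at 10.46, 10.001 and 10.25, so that RS was the lowest pool for Hspe1. The 3 values of Hspd1 lay within 0.12 of each other. Over the 15 members with a heat shock element RS against NV had a median of -0.02, RE against RS one of -0.08 and RE against NV one of 0.04. Over the 38 members with a window and neither motif it was 0.12, -0.13 and 0.04. These groups do not separate heat-responsive from other genes. Dnajb1 and Hspa4l of the heat list had neither motif, and Hsp90aa1 had no window. None of the 15 was called, which for so few genes is near the shares of all genes called.

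Hsp90aa1, the inducible cytosolic HSP90, was at 17.31 (NV), 17.81 (RS) and 17.36 (RE). RS was the highest pool, by 0.50 over NV and 0.45 over RE, and 31.6% of all genes had a difference at least as large as the first of these. After quantile normalization it was 0.23 over NV, and RE lay 0.07 above RS, so the order of RS and RE is not settled. Its values exceed 16, the most that a scanner with 16 bits can record in log2 units, and no source used here names the step behind this. Hsp90b1, the HSP90 of the ER, was at 15.55, 15.46 and 15.12. The 7 members with a mean signal above 14 in the pair (Dnajb6, Dnajc6, Hsp90aa1, Hsp90b1, Hspa4, Hspa5 and Hsph1) were all lower in RE than in RS, with a median of -0.30 and none called. At this signal the median over all 647 genes was -0.22, and 11.4% of them were positive, the same direction as in the 7 members. With the trend on signal removed, their differences ran from -0.30 in Dnajb6 to 0.05 in Hspa5, with -0.12 in Hsp90b1, -0.11 in Dnajc6, -0.09 in Hsp90aa1, -0.06 in Hsph1 and 0.02 in Hspa4.

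In the ER group none of 14 members was lower and 1 was higher between RS and NV. Of all genes 4.29% were lower and 3.52% higher, so for so few members both counts are near those shares. Dnajb14, a membrane-anchored DNAJ protein of the ER, was at 8.21 (NV), 9.45 (RS) and 8.93 (RE). Both restrained pools were above NV, by 1.24 (2.36-fold) for RS and 0.72 for RE, and RE was below RS by 0.52. For RS against NV 3.87% of all genes had a difference at least as large. The related Dnajb12, also anchored in the ER membrane, was at 8.47, 9.10 and 8.97, with the same order of the pools and a difference of 0.63 between RS and NV. Dnajb14 had neither motif in its window, of which the last 100 bases before the start are shown because it was the only member called above background.
Dnajb14 (chr3:137867575-137867674, plus strand): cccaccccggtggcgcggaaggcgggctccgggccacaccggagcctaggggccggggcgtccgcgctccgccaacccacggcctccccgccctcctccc
The genes with the ER stress response element did not follow Dnajb14. Hspa5 (BiP), the HSP70 of the ER and the usual readout of unfolded protein stress, was at 16.02 (NV), 15.73 (RS) and 15.54 (RE). NV was its highest pool, with differences of -0.29 for RS and -0.48 for RE. Dnajc3, a lumenal partner of Hspa5 that also acts on translation, was at 11.22, 11.27 and 11.18. For these 2 genes and Hsp90b1 the median was -0.10 for RS against NV and -0.44 for RE against NV.
None of the other ER members was called. Dnajb9 was at 12.27, 12.54 and 12.43, and Dnajb11 at 9.12, 9.50 and 9.43. Dnajc10, a reductase that helps remove misfolded proteins, was at 13.26, 12.90 and 12.68, highest in NV. Dnajc1 was at 9.998, 10.52 and 10.42. Hspa13, a microsomal HSP70, was at 12.17, 11.76 and 11.99, lowest in RS. Dnajc16, with a signal just above background, was at 6.34, 6.70 and 7.25, and its difference of 0.92 for RE against NV was the largest of any member above background in that pair. Over the 14 ER genes RS against NV had a median of 0.06, RE against RS one of -0.11 and RE against NV one of 0.08.

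**Figure D3:**
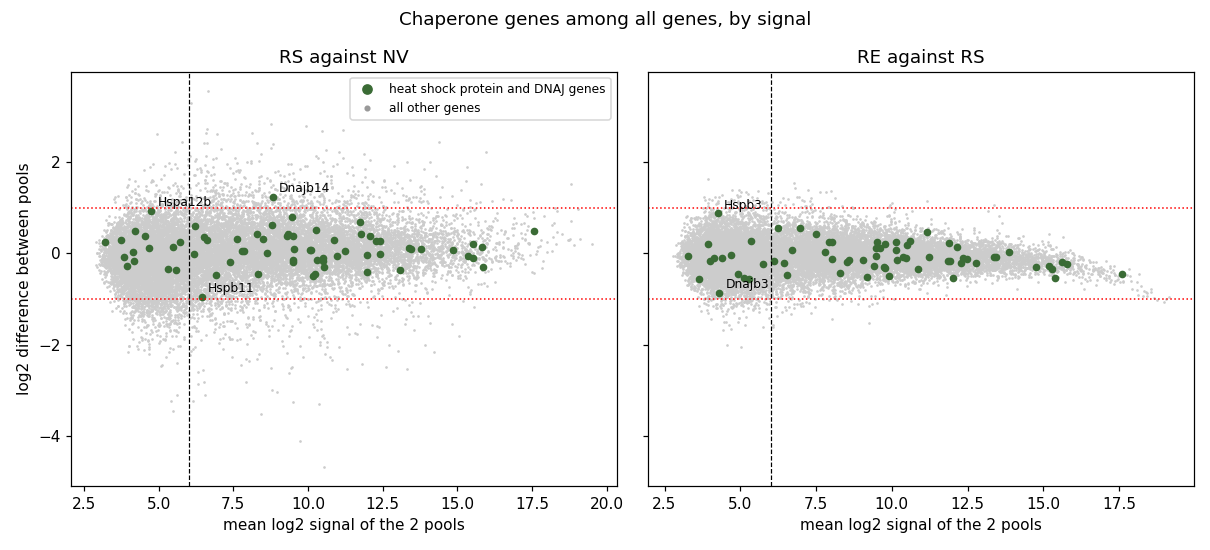
Log2 difference against the mean log2 signal of the pair for all genes (grey) and the 68 members (green), with RS against NV on the left and RE against RS on the right. Dotted lines mark 2-fold and the dashed line the background level, and at signals above 14 the grey points of the right panel lie mostly below 0, as do all 7 members there.

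For mitochondria 10 of 10 listed members were measured and 0 were called in any pair. Of all genes 7.8% (RS against NV), 1.16% (RE against RS) and 7.98% (RE against NV) were called. For so few members the count is near those shares. Hspa9, the mitochondrial HSP70 of protein import, was at 11.88 (NV), 12.28 (RS) and 11.74 (RE). RS was highest by 0.39 over NV and by 0.53 over RE, the lowest RE against RS value among members above background. Dnaja3, its partner in the matrix, was at 9.47, 9.56 and 9.29. Dnajc11, of the protein complex that shapes the inner membrane, was at 9.07, 9.87 and 9.58, and its 0.80 between RS and NV came second after Dnajb14 among members above background. The import motor subunit Dnajc19 was at 11.99, 11.94 and 11.77, and the related Dnajc15 at 10.69, 10.41 and 10.34. Dnajc4 was at 8.07, 8.49 and 8.07, and Dnajc28 at 7.82, 7.89 and 8.14. The median of this group was 0.08 for RS against NV and -0.16 for RE against RS.

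Of the members known from nerve endings and from the suppression of aggregates, 0 were called in any pair. For so few members this is near the shares of all genes called. Dnajc5 (cysteine string protein), a chaperone of synaptic vesicles, was at 11.00 (NV), 10.94 (RS) and 11.40 (RE). RE was the highest pool, by 0.47 over RS. Dnajc6 (auxilin), which strips clathrin from vesicles at nerve endings, was at 14.82, 14.90 and 14.60. Dnajc13, an endosomal DNAJ protein, was at 10.08, 10.14 and 9.66, lowest in RE. Dnajb6 and Dnajb2 suppress the aggregation of disease proteins. Dnajb6 was at 15.43, 15.64 and 15.11, and Dnajb2 at 8.62, 8.62 and 8.42. Hspa12a, a distant HSP70 relative found in brain, was at 10.56, 10.46 and 10.73. Hspa2, an HSP70 of germ cells that brain also expresses, was at 11.55, 11.98 and 11.83.
Of the cytosolic DNAJA genes, Dnaja4 was at 11.40 (NV), 12.09 (RS) and 12.24 (RE). Both restrained pools were above NV, by 0.69 and 0.84, and 12.8% of all genes had a difference at least as large as the second. Dnaja2, a general partner of HSP70, had the same order of the pools, at 9.30, 9.67 and 9.87. Dnajc7, which links HSP70 to HSP90, was at 13.74, 13.84 and 13.88.
Hspa14, an HSP70 bound to ribosomes, was at 10.42 (NV), 9.93 (RS) and 9.63 (RE), and its -0.80 for RE against NV was the lowest value of a member above background in that pair. Its DNAJ partner on the ribosome, Dnajc2, was at 10.74, 11.02 and 10.67. Dnajc21, which acts in ribosome production, was at 9.11, 9.53 and 9.66. Dnajc17, tied to splicing, was at 8.56, 8.10 and 7.97, with NV highest. The histone chaperone Dnajc9 was at 9.56, 9.42 and 9.54. In the group of 6 nuclear and ribosomal members 0 were called, which for so few members is near the shares of all genes called. Their median was 0.28 for RS against NV.

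Of the 8 small HSP genes 4 were above background in at least 1 pool and 2 in all 3. Hspb6, known from muscle, was at 7.15 (NV), 6.66 (RS) and 6.74 (RE), and Hspb2 at 6.46, 6.77 and 6.30. Hspb8, a partner of Bag3 in the removal of aggregates, was at 5.93, 6.53 and 6.33, so that only NV lay below background. Hspb11, named with the small HSPs but a subunit of the transport complex of cilia, was at 6.93, 5.98 and 6.54. Its RS value was just below background, and -0.95 was the lowest difference of any member between RS and NV. Hspb3, Hspb7 and Hspb9 were below background in all pools.
Hspa12b, an HSP70 relative known from endothelial cells, had signals of 4.28 (NV), 5.22 (RS) and 5.50 (RE). The 1.22 between RE and NV (2.32-fold) passed the threshold, and that of 0.94 between RS and NV did not. Since all 3 values lie below background, the size of these differences is uncertain. Of 10 endothelial marker genes 0 were higher and 0 lower in either comparison, with a median of 0.07 for RE against NV, and their part in this result was not tested.
Hspa2, named above for germ cells and brain, was above background and not on the germ cell list. All 8 members of that list (Hspa1l, Hspb9, Dnajb3, Dnajb7, Dnajb8, Dnajb13, Dnajc5b and Dnajc5g) lay below background in the 3 pools. Among them Dnajb3 had -0.86 for RE against RS and Dnajc5b -0.91 for RE against NV. Of the 1448 chemosensory receptor genes, 164 were lower and 86 higher by 1.5-fold or more between RE and RS. Between RE and NV 391 were lower and 98 higher. Of all genes 6.33% were lower and 3.46% higher in the first pair, and 16% lower and 10.5% higher in the second.

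The lists of genes that work with the members, together with family members outside the symbol rule, held 67 measured genes. Of these 2 were called between RS and NV (2.99%, against 7.8% of all genes). Between RE and RS 0 were called (against 1.16%), and between RE and NV 1 (1.49%, against 7.98%). Of the heat shock factor list 4 of 5 genes were measured and 0 were called. The 4 were Hsf2, Hsf4, Hsf5 and Hsbp1, so they give no value for Hsf1. Hsf5 lay below background in all pools. Hsf2 was at 9.84 (NV), 10.40 (RS) and 10.39 (RE), and Hsbp1, a binding protein of heat shock factors, at 13.90, 13.36 and 13.37. Of 16 measured HSP90 co-chaperones 0 were called in any pair. Between RS and NV 12 of the 16 were positive, where 55.9% of genes above background were, and the median was 0.25, or 0.14 with the trend on signal removed. Stip1, which joins HSP70 to HSP90, was at 13.97, 14.11 and 13.99. The co-chaperones of steroid receptors Fkbp4, at 11.24, 11.47 and 11.56, and Fkbp5, a gene that glucocorticoids induce, at 12.60, 12.95 and 12.86, had their lowest signal in NV. Unc45a had the largest difference of this list between RS and NV, 0.78.
Of 13 genes listed as co-chaperones and exchange factors of HSP70, the 1 called was Hspbap1, listed there although it binds the small HSP Hspb1. Hspbap1 was lower in RS than in NV, with 7.09 (NV), 5.95 (RS) and 6.43 (RE). Its RS value was below background and the difference was -1.14. The other 12 were not called, among them Bag3, an exchange factor induced by stress, at 5.95, 5.89 and 5.99, and Hyou1, the exchange factor of Hspa5, at 12.89, 12.35 and 12.51. All 6 prefoldin genes, which hand actin and tubulin chains to the cytosolic chaperonin, were positive between RS and NV with a median of 0.55. Of genes above background 55.9% were positive. None of the 6 was called, which for so few genes is near the 7.8% of all genes called. With the trend on signal removed 4 of the 6 were positive, with a median of 0.43. Pfdn6 was at 10.59, 11.46 and 11.46. Of 8 genes of that chaperonin, TRiC, 0 were called, with a median of 0.06 that turned to -0.0099 once the trend was removed. Its subunit Cct7 lay below background in all pools, at 4.39, 4.42 and 5.25, although the complex needs it in all cells. A signal below background on this array is thus not a sign that a gene is off.
Of 14 ER folding genes 0 were called. Between RS and NV 11 were positive, where 55.9% of genes above background were, with a median of 0.32, or 0.20 without the trend. Between RE and RS 4 were positive, where 41.5% of all genes were, with a median of -0.16. The values between RS and NV reached 0.89 for Creld2, 0.85 for Atf6, a sensor of unfolded proteins in the ER, and 0.79 for Ddit3, a factor of the late unfolded protein response, while Herpud1 and Ern1 had -0.34 and -0.53.

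**Figure D4:**
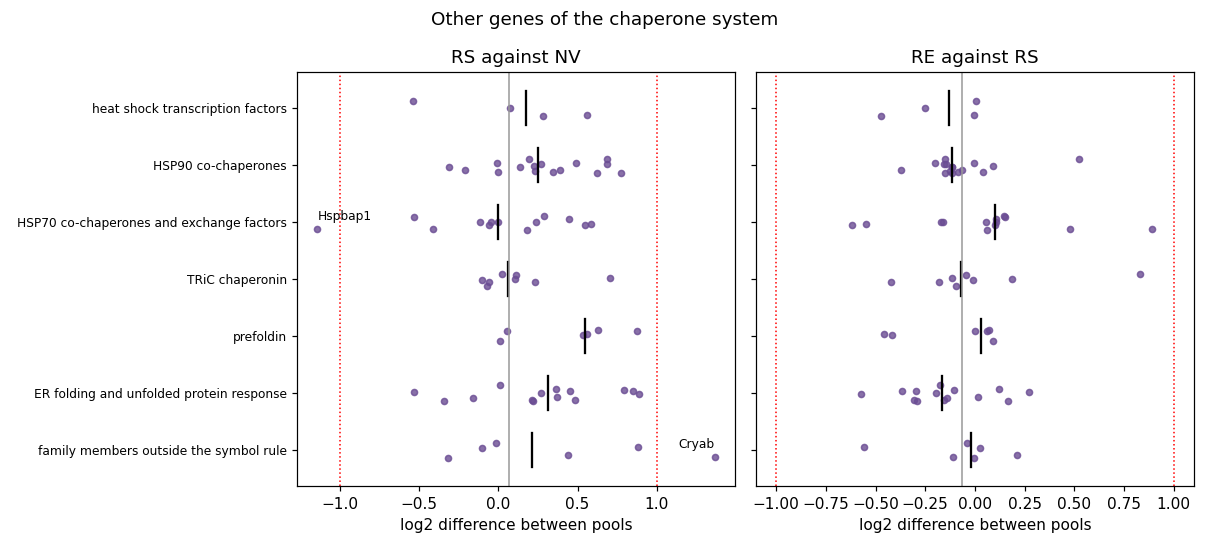
Log2 difference between pools for genes that work with the heat shock proteins, by list, with the list median as a black line and the median of all genes above background as a grey line. Dotted lines mark 2-fold, which Cryab passed upward and Hspbap1 downward between RS and NV and which no gene passed between RE and RS.

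Among family members that the symbol rule leaves out, Cryab (αB-crystallin), a small HSP abundant in oligodendrocytes and astrocytes, was higher in both restrained pools. It was at 9.28 (NV), 10.65 (RS) and 10.54 (RE), with differences of 1.36 and 1.25 from NV. Hspb2, whose gene range in RefSeq overlaps that of Cryab, differed by 0.30 between RS and NV. Of 11 oligodendrocyte marker genes 5 were higher and 0 lower in the same comparison, with a median of 0.95. The log2 of their summed signal was 16.88 (NV), 17.92 (RS) and 17.63 (RE). Much of this sum is Mbp alone, at 16.20, 17.36 and 17.04, values above 16 where the scale is unknown. Of 10 astrocyte genes 1 was higher and 0 lower, with a median of -0.08. The part of these cells in the Cryab result was not tested. The mitochondrial HSP90 gene Trap1 was at 10.58, 10.47 and 10.49.
Marker genes of brain regions and cell types differed between pools as well. With RS set against NV, 7 of 10 dentate granule genes were called higher (median 2.66) and 8 of 10 ventral hippocampus genes lower (median -1.85). Immediate early genes were called higher in 5 of 14 cases (median 0.77), and 3 of 10 interneuron genes were called lower (median -0.57). Of 10 genes of thalamus and habenula 3 were called lower and 2 higher, with a list median of -0.38. The 3 lower were Tcf7l2 (-4.68), Slc17a6 (-3.30) and Pou4f1 (-3.24), and the 2 higher were Prkcd (1.98) and Nr4a2 (1.04). Between RE and RS all 10 ventral hippocampus genes were positive and 3 were called higher (median 0.82), and 1 dentate granule gene was called lower. These differences move with the same comparisons as the member values, and their part in them was not tested.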

How the data were processed

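The authors pooled hippocampal RNA within each group and ran 1 Affymetrix whole-transcript array per pool. The deposited table holds log2 signals of 22205 probe sets, made with RMA in Affymetrix Power Tools by the submitters' processing notes, while the paper names Command Console, and whose versions were not given in the sources used here. Column medians were 6.64 in NV, 6.62 in RS and 6.55 in RE, with values from 2.71 to 19.9. The scale of values above 16 is unknown.

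Gene symbols came from the platform annotation. Of the probe sets 19571 had 1 symbol, 0 several and 2634 none, and the probe set with the highest 3-array mean stood for a gene, which gave 19504 genes. Gene identifiers matched RefSeq (GRCm38.p6) for all 68 members and changed 0 symbols. Differences of log2 signals were the only comparison. Arrays have no read depth, and their number limits the precision. The members, families and lists were chosen with earlier results of these data known.

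Named members were all those called in any pair, the 10 largest positive and negative differences above background for RS against NV and for RE against RS, the heat-inducible list, and the first 3 of each family by signal. In the pathway lists the rule named called genes, and further examples were chosen after their values were seen, as were the other members described. Alternatives were centring on the median, quantile normalization, removal of a lowess trend (span 0.3), a filter on low signal, the mean of probe sets, a 1.5-fold threshold and the mean of RS and RE. The calling script was run on simulated noise with added shifts larger than the calling threshold. That checks the code only and says nothing of the spread between replicates. Figures were drawn with matplotlib 3.10.9, and values were computed with statsmodels 0.14.6, pandas 2.3.3 and numpy 2.4.6 under python 3.11.15.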

Additional observations from a re-analysis of the deposited data

How the results depend on the processing

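No paired analysis was possible because each group is 1 array. With 1 pool per group, no setting stands in for a replicate, and a shift of over 0.1 in a family median is given here. The mean of probe sets could not move any member, since each has 1 probe set. Centring shifts all genes by one amount, here less than 0.1, so its effect on family medians says nothing of their stability. It moved the median of all genes by 0.07 for RE against RS and turned the share of higher among called genes from 37.9% to 54.2%, with 0 members called either way. Members called between RS and NV numbered 2 after quantile normalization and 2 after removal of the lowess trend, where Hspa12b joined Dnajb14 with 1.09 in both, and 7 at 1.5-fold. At 1.5-fold 2 were called between RE and RS and 8 between RE and NV. With the filter on low signal 0 were called between RE and NV, since Hspa12b drops out. With the mean of RS and RE set against NV 1 member was called, but it was Hspa12b with 1.08, and Dnajb14 was at 0.98.

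For RS against NV, removal of the trend gave -0.0238 for HSP110, 0.0405 for HSP90, -0.28 for the chaperonin and 0.26 for DNAJA. Quantile normalization gave 0.0127 for HSP90 and 0.26 for DNAJA, and the filter gave -0.14 for HSP70 and -0.0892 for small HSP. For RE against RS, quantile normalization gave 0.15 for HSP70, -0.0045 for HSP110 and -0.0296 for HSP90, and removal of the trend gave 0.16, 0.0230 and -0.10. For RE against NV, quantile normalization gave 0.0250 for HSP110, -0.0169 for HSP90 and 0.32 for small HSP, removal of the trend gave -0.0661 for HSP90 and 0.30 for small HSP, and the filter gave -0.28 for small HSP and 0.11 for DNAJB. The medians of HSP70, HSP110, small HSP, DNAJB and DNAJC changed sign in at least 1 comparison and setting, and those of HSP90, the chaperonin and DNAJA in none of those run. For RS against NV that of DNAJC was -0.0130 after quantile normalization and -0.0276 without the trend. The cause was not tested. Dnajb14 was between 1.13 and 1.24 for RS against NV under centring, quantile normalization, trend removal and the filter.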
